A study of Mus musculus with 10 samples.

Results

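The genes examined here encode 40 nuclear subunits of oxidative phosphorylation, chosen as a named list of symbols and sorted by respiratory complex, among 22011 genes or transcripts that could be tested in mouse heart ventricle. They comprise 15 genes of complex I, 4 of complex II, 6 of complex III with cytochrome c, 9 of complex IV and 6 of complex V. Every one of the 40 was matched to a probe well above background on all 9 arrays. Ventricle RNA came from 5 male mice given aldosterone, the mineralocorticoid hormone, and from 5 male control mice with no treatment, both labelled with a duration of 7 days. Each heart was labelled in Cy5 and hybridised to a 2-colour Agilent array against pooled RNA of liver, brain, heart, kidney and spleen in Cy3. The sources used here give no strain, age, hormone dose or route. The labels name a different mouse for every heart. They carry the term Ctrl in both groups, and control here means the mice with no treatment. Scanner readings were used for 4 aldosterone hearts (1, 2, 3 and 5) and 5 control hearts, and the authors' deposited value table of log2 ratios covered all 10 hearts.

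Oxidative phosphorylation is carried out by 5 protein complexes of the inner mitochondrial membrane. Complexes I and II take electrons from NADH and succinate, complex III passes them through cytochrome c to complex IV, which reduces oxygen, and complexes I, III and IV pump protons as they do so. Complex V, the ATP synthase, lets the protons flow back and makes ATP. Cardiomyocytes are packed with mitochondria because the beating heart draws nearly all of its ATP from this pathway. Most subunits are encoded in the nucleus, and several complex IV subunits exist as a form of heart and skeletal muscle beside a widely expressed form.

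The first property of these genes on the arrays was their brightness. A spot reads as saturated when the scanner's scale ends, here at 65206 to 65208 intensity units, and a saturated spot gives only a lower limit for the heart RNA. The Cy5 probe of 18 of the 40 members was saturated on all 9 arrays, which is 45%, whereas 177 of all 22011 genes were, or 0.804%. The Cy3 signal of the tissue pool was saturated for none of the members' probes on any array. A member was counted as measured unless its Cy5 probe was saturated on every array of at least 1 group. This left 20 measured members, 17 of them never saturated, and 20 for which no fold change is given.

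Saturation was unevenly spread over the complexes. In complex IV, 8 of 9 members were saturated on every array: Cox4i1, Cox5a, Cox5b, Cox6c, Cox7b and the muscle forms Cox6a2, Cox7a1 and Cox8b. In complex I this held for 6 of 15, namely Ndufa1, Ndufa2, Ndufb8, Ndufb9, the iron-sulfur subunit Ndufs7 and the NADH-binding subunit Ndufv1. Complex III lost Uqcrfs1, the Rieske iron-sulfur protein, and Cyc1, cytochrome c1, on every array. Its core subunit Uqcrc2 had saturated spots on all 4 aldosterone arrays and on 4 of 5 control arrays. Complex V lost the catalytic-head subunits Atp5a1 and Atp5b on every array, and Atp5j, coupling factor 6 of the stalk, was saturated on 3 of 4 aldosterone arrays and on all 5 control arrays. The probes that represent the 4 complex II genes were saturated on no array. Each gene was represented by its least saturated probe, and other probes of Sdhb, Ndufa5 and Uqcrb were saturated on all 9 arrays. Among the measured members, Ndufs3 was saturated on 7 arrays, Ndufv2 on 3 and Ndufa4 on 1, the array of aldosterone 2.

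**Figure D1:**
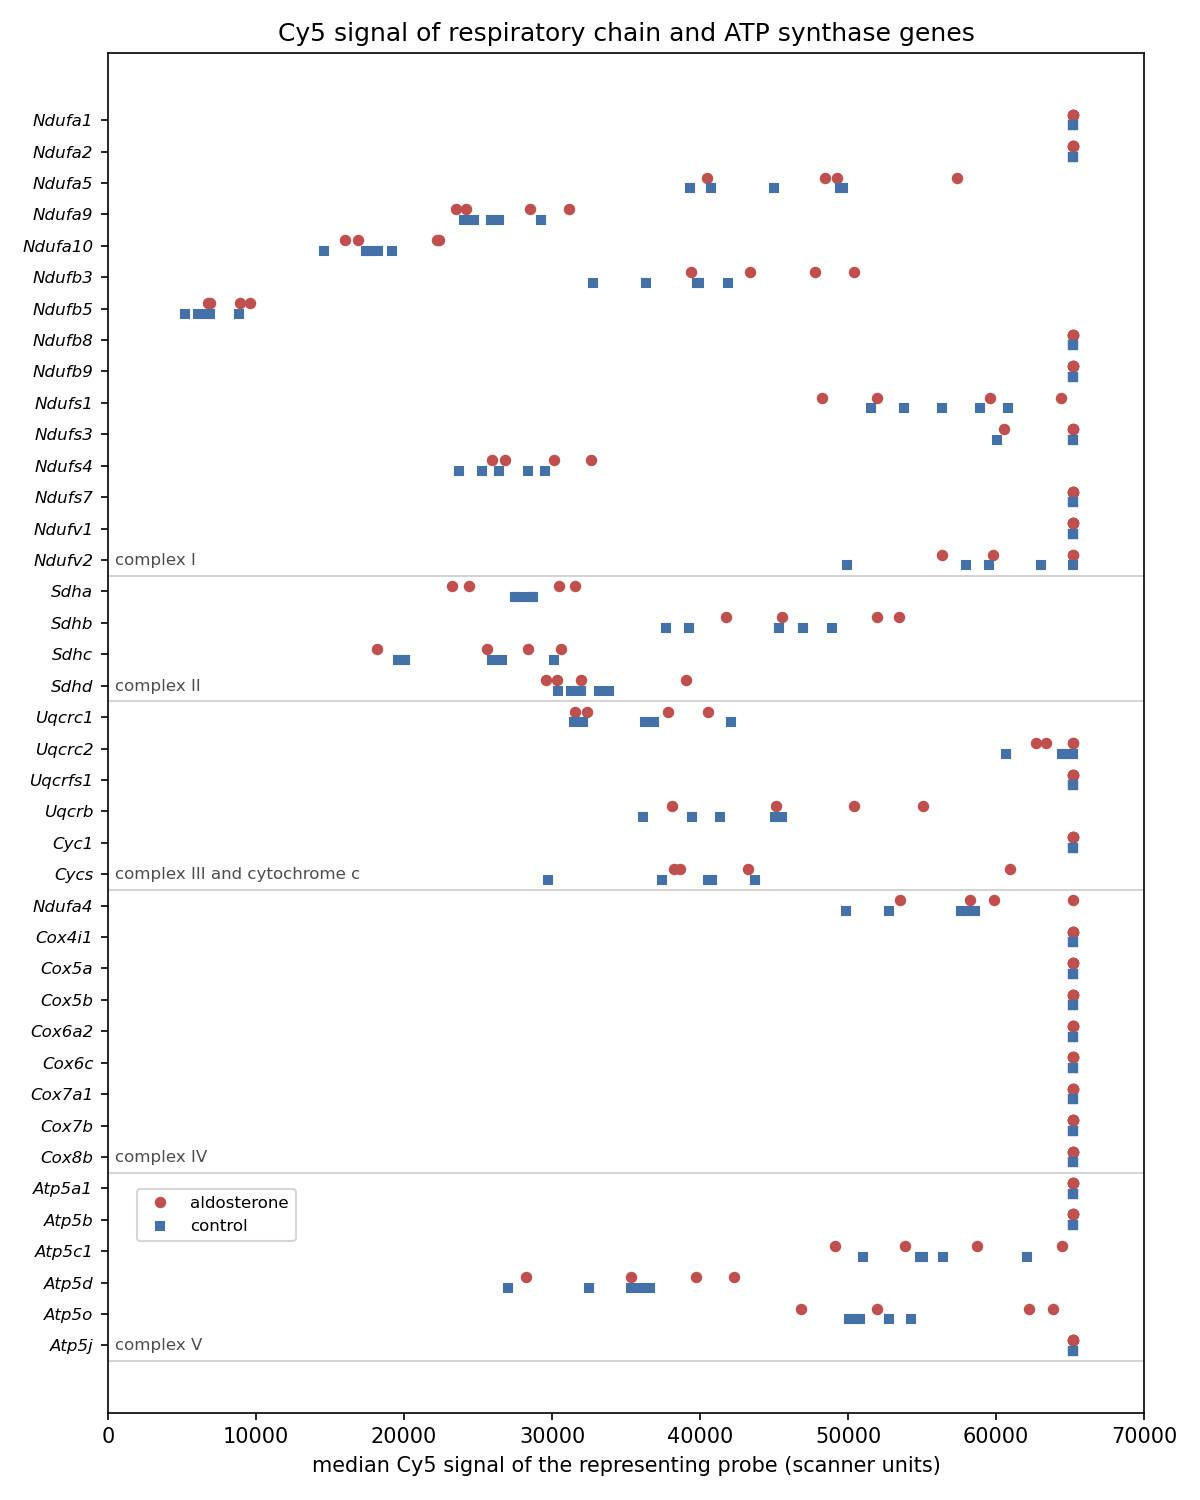
Median Cy5 signal of the probe that represents each of the 40 genes, in scanner units, with 1 point for each of 4 aldosterone hearts (red circles) and 5 control hearts (blue squares), grouped by complex. All complex IV genes except Ndufa4 sit at the end of the scale at 65206 to 65208 units in every heart, while the 4 complex II genes stay below it.

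Between the groups, none of the 20 measured members differed after adjustment. In the limma fit over 22011 genes with Benjamini-Hochberg adjustment, 0 genes of any kind passed at 0.05 (0%), and the smallest adjusted p over all genes was 0.101. Without adjustment, 916 genes (4.16%) were higher and 449 (2.04%) lower in aldosterone hearts at p under 0.05. Of the 20 measured members, 1 was higher at that level and 0 were lower. Aldosterone and control hearts did not overlap in 463 genes (2.1%), and in none of the measured members. The measured members had a median difference, aldosterone minus control, of 0.03 on the log2 scale, against 0.0053 over all genes, and 14 of the 20 had a positive difference, as did 52.4% of all genes. Without the heart control 3, described further on, 6 of the 20 had a positive difference. The mean over the 20 was then -0.02 in place of 0.04. Control 3 was singled out for its low values in these same genes, so a lower mean difference without it was fixed in advance. With any other single heart left out, 10 to 16 of the 20 had a positive difference.

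The precision of these arrays bounds what could have been seen. The median standard error of a measured member's difference was 0.10 on the log2 scale. The 95% intervals of the measured members lay within -0.31 to 0.55, which is 0.805-fold to 1.47-fold. For the 17 never-saturated members, changes beyond these bounds lay outside every interval, while 19 of the 20 intervals held 0. The intervals of Ndufs3, Ndufv2 and Ndufa4 rest in part on saturated spots, which give lower limits, and do not bound a change.

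In the deposited value table, which adds the heart aldosterone 4, 37 of the 22011 genes passed in the limma fit (0.168%), 33 higher and 4 lower in aldosterone hearts, and 1778 genes (8.08%) had an unadjusted p under 0.05. None of the measured members passed there, the smallest adjusted p among them being 0.543 by limma with Benjamini-Hochberg adjustment, and 1 had an unadjusted p under 0.05. A positive difference was again found for 14 of the 20, with a median of 0.06.

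**Figure D2:**
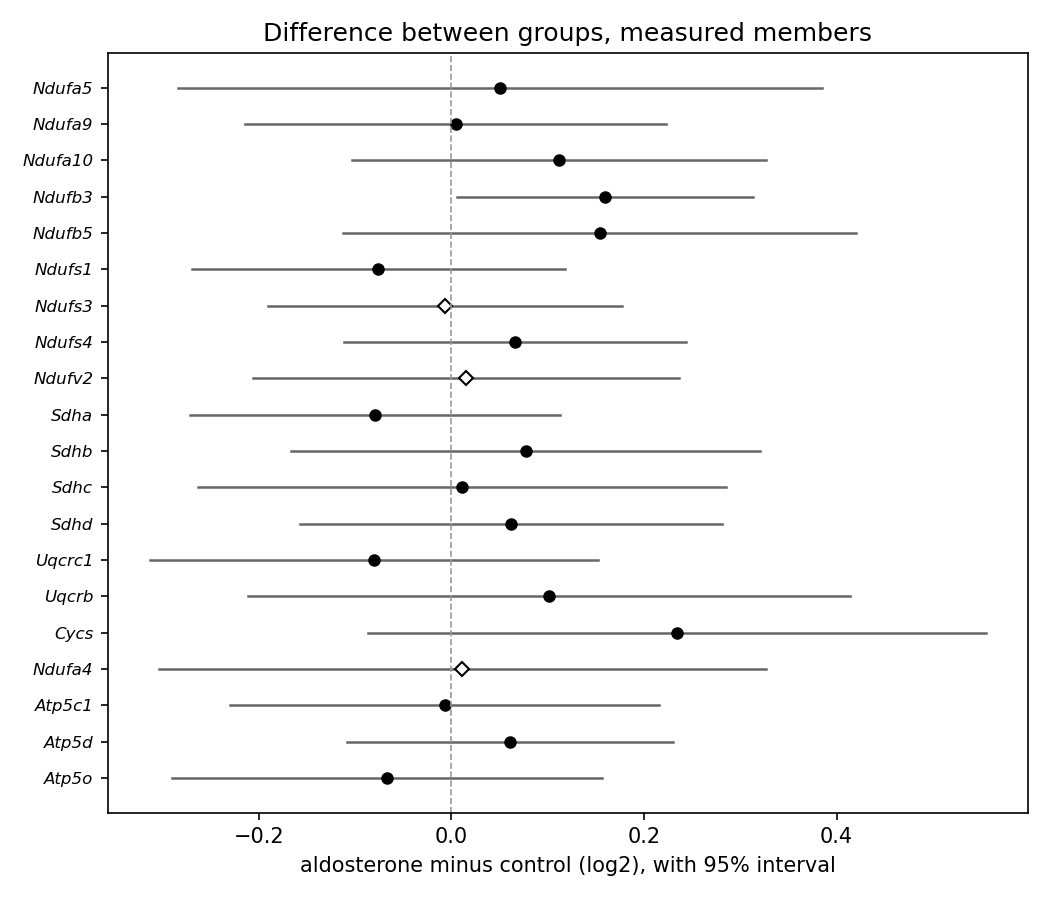
Difference in log2 ratio between aldosterone and control hearts (aldosterone minus control) for the 20 measured genes, with 95% intervals from the limma fit on 4 aldosterone and 5 control arrays. Open diamonds mark the 3 genes with a saturated spot on some arrays, and the interval of Ndufb3 alone lies to the right of 0.

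Before the members are taken by complex, 1 heart has to be described. Control 3 had the lowest log2 ratio of the 9 hearts for 12 of the 17 never-saturated members, and it lay below the gene's own mean for all 17. The median deviation of the 17 from their means over the 9 hearts was -0.28 in control 3. The 873 other unsaturated genes with a mean log2 Cy5 signal of 14 or more, a floor that lies below most of the members, had a median deviation of -0.04 there. The same 17 genes lay above their means in 16 of 17 cases in both aldosterone 2 and control 2, with a median deviation of 0.13 in each. Aldosterone 5 was the lowest of its group, with a median deviation of -0.14 and 4 of 17 genes above their means. The never-saturated members of 4 complexes were alike in control 3, with a median deviation of -0.28 for complex I, -0.28 for complex II, -0.27 for complex III with cytochrome c and -0.28 for complex V.

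Relative to the rest of each channel, the low values of control 3 were in the channel of the heart RNA. For this each channel was scaled to its upper quartile on each array, and the unscaled Cy5 signal of control 3 was not low for every gene. In the Cy5 channel alone the median deviation of the 17 genes in control 3 was -0.30, and in the Cy3 channel alone it was -0.02. The authors' deposited value table holds the scanner's ratios of the same hybridisations, so it is no independent reading of control 3. In that table control 3 was at -0.28 and was the lowest of 10 hearts for 10 of the 17 genes. There aldosterone 4, the heart with no scanner file used here, was at 0.12 with all 17 genes above their means. Other gene lists, of related function and of other cell types, were low in control 3 as well. The median deviation was -0.21 for the cardiomyocyte markers (4 of 9 lowest there) and -0.21 for the tricarboxylic acid cycle (4 of 10). It was -0.31 for the macrophage markers, -0.22 for the red blood cell markers, -0.21 for the fibroblast markers, and -0.14 each for the endothelial and the lymphocyte markers. Control 4 was lower than control 3 for the macrophage markers, at -0.42, control 2 for the red blood cell markers, at -0.61, and control 1 for the fibroblast markers, at -0.41. The median deviation of the assembly factors in control 3 was -0.07 (13 of 42). In whole ventricle, fewer cells of a type and less RNA per cell cannot be told apart, and the part of any of these in the members' values was not tested.

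The hearts also differed along an axis that crosses the groups. The first principal component of all genes held 32.8% of the variance and set aldosterone 1, aldosterone 2, control 2 and control 5 on its positive side, with the other 5 hearts on its negative side. Control 3 had the lowest score of the 9 hearts. Since the hearts fall into separate sets, no correlation across hearts is given.

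**Figure D3:**
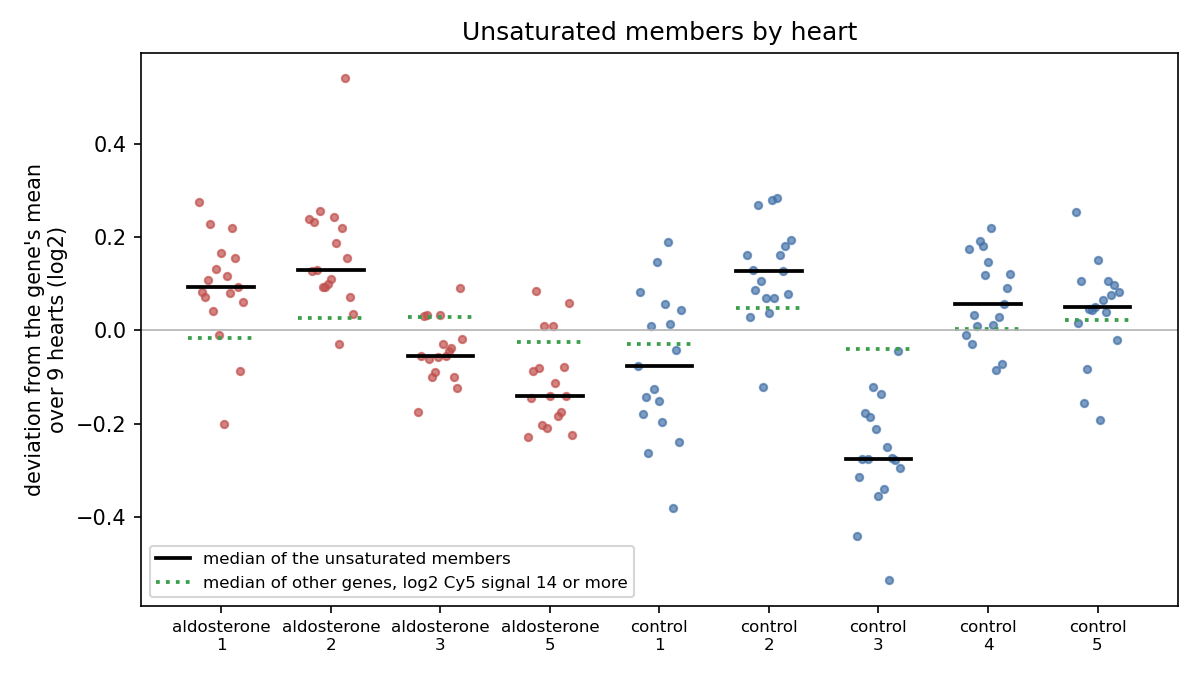
Deviation of each of the 17 never-saturated genes from its own mean over 9 hearts (log2), by heart, with aldosterone hearts in red and control hearts in blue. Black bars are the median of the 17 genes and dotted green bars the median of 873 other genes with a mean log2 Cy5 signal of 14 or more. Control 3 has a median of -0.28 against -0.04 for the other genes.

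Complex I carries electrons from NADH to ubiquinone through a chain of iron-sulfur clusters. Its 9 measured members averaged a log2 ratio of 1.69 ± 0.12 in aldosterone hearts and 1.64 ± 0.14 in control hearts (SD over the means of 4 and 5 hearts), a difference of 0.05 that became -0.0018 without control 3. Of the 9, 7 had a positive and 2 a negative difference.

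Ndufb3, an accessory subunit of the membrane arm, had the smallest p of all members. Its log2 ratio over the tissue pool was 1.87, 1.89, 1.79 and 1.84 in aldosterone hearts 1, 2, 3 and 5, against 1.62, 1.85, 1.58, 1.79 and 1.60 in control hearts 1 to 5. The 4 aldosterone hearts lay close together, control 2 fell inside their range, and control 4 was level with aldosterone 3. The difference was 0.16 (SE 0.07, unadjusted p = 0.0426, adjusted p = 0.790 by limma with Benjamini-Hochberg adjustment). In the value table of 10 hearts it was 0.16 (SE 0.06, adjusted p = 0.543 by limma). Without control 3 the unadjusted p was no longer under 0.05.

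The other complex I members had intervals that held 0. Ndufb5, another membrane-arm subunit, averaged 1.57 ± 0.18 in aldosterone hearts and 1.42 ± 0.22 in control hearts (SD, n = 4 and 5), a difference of 0.15 (SE 0.12). A brighter Ndufb5 probe, saturated on 2 arrays, differed by 0.06. Ndufa10, an accessory subunit of the matrix-facing side, differed by 0.11 (SE 0.10). Ndufs4, an accessory subunit whose loss causes Leigh syndrome in humans, differed by 0.07 (SE 0.08), and Ndufa5 by 0.05 (SE 0.15). Ndufa9, which sits near the ubiquinone site, differed by 0.0044 (SE 0.10). Ndufs1, the largest iron-sulfur core subunit, averaged 2.06 ± 0.14 in aldosterone hearts and 2.14 ± 0.14 in control hearts, a difference of -0.08 (SE 0.09). The core subunits Ndufv2 and Ndufs3, saturated on 3 and 7 arrays, differed by 0.02 (SE 0.10) and -0.0067 (SE 0.08), with a lower limit in place of a value on the saturated arrays.

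Complex II, succinate dehydrogenase, is also an enzyme of the tricarboxylic acid cycle and was the complex with all of its subunits measured. Its 4 members averaged 1.49 ± 0.11 in aldosterone hearts and 1.47 ± 0.16 in control hearts, a difference of 0.02 that became -0.05 without control 3. Sdha, the flavoprotein that oxidises succinate, had the smallest p of the complex. Its log2 ratio was 1.41, 1.52, 1.36 and 1.21 in aldosterone hearts 1, 2, 3 and 5, against 1.56, 1.49, 1.21, 1.54 and 1.47 in control hearts 1 to 5. Control 3 matched the lowest aldosterone heart, and the other controls lay at 1.47 or above. The difference was -0.08 (SE 0.09, unadjusted p = 0.383, adjusted p = 1.00 by limma). The iron-sulfur subunit Sdhb differed by 0.08 (SE 0.11), and the membrane anchors Sdhc and Sdhd by 0.01 (SE 0.12) and 0.06 (SE 0.10).

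Complex III hands electrons from ubiquinol to cytochrome c, the small mobile carrier encoded in somatic tissues by Cycs. Cycs had the largest difference of all measured members over the 9 hearts. Its log2 ratio was 2.51, 2.90, 2.26 and 2.28 in aldosterone hearts 1, 2, 3 and 5, against 1.98, 2.49, 2.09, 2.29 and 2.44 in control hearts 1 to 5. Aldosterone 2 stood above every other heart, and aldosterone 3 and 5 lay inside the control range. The means were 2.49 ± 0.30 in aldosterone hearts and 2.25 ± 0.22 in control hearts, a difference of 0.23 (SE 0.15, unadjusted p = 0.137, adjusted p = 0.944 by limma with Benjamini-Hochberg adjustment). Without aldosterone 2 the difference of Cycs was 0.10, below the 0.15 of Ndufb3. Uqcrb, a small subunit near the ubiquinone site, differed by 0.10 (SE 0.14), and the core subunit Uqcrc1 by -0.08 (SE 0.11). The 3 measured members averaged 1.81 ± 0.18 in aldosterone hearts and 1.72 ± 0.20 in control hearts, a difference of 0.08 that became 0.0062 without control 3. This value rested on the choice of probe: with the brightest probe of each gene, which is saturated for Cycs and Uqcrb, only Uqcrc1 remained and the value was -0.08.

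Complex IV, cytochrome c oxidase, was represented by Ndufa4 alone, a gene once counted to complex I whose product is a complex IV subunit. Its log2 ratio was 1.56, 1.38, 1.09 and 1.25 in aldosterone hearts 1, 2, 3 and 5, against 1.27, 1.62, 0.86, 1.40 and 1.39 in control hearts 1 to 5. The value of aldosterone 2 is a lower limit because its spot was saturated, and control 3 was the lowest heart. The difference was 0.01 (SE 0.14, unadjusted p = 0.937, adjusted p = 1.00 by limma), and -0.10 without control 3.

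The muscle isoforms of complex IV and their widely expressed partners could be compared in 1 case of 6. Cox6a2, Cox7a1 and Cox8b read 65206 to 65208 Cy5 units in every heart, so their ratios to the tissue pool are lower limits. These limits were 0.29 to 0.38 in aldosterone hearts and 0.25 to 0.63 in control hearts for Cox6a2. For Cox7a1 they were 0.97 to 1.18 in aldosterone hearts and 0.85 to 1.33 in control hearts, and for Cox8b 1.58 to 1.83 in aldosterone hearts and 1.45 to 1.88 in control hearts. The partners Cox6a1 and Cox7a2 were saturated on 4 aldosterone and 4 control arrays each, so no fold is given for them either. Cox8a, the widely expressed partner of Cox8b, was unsaturated on every array. Its log2 ratio was -0.65, -0.85, -0.94 and -1.10 in aldosterone hearts 1, 2, 3 and 5, against -0.95, -0.65, -1.20, -0.98 and -0.97 in control hearts 1 to 5. The groups overlapped over nearly their whole ranges, with a difference of 0.07 (SE 0.11, unadjusted p = 0.577).

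Complex V makes ATP as protons turn its rotor. Its 3 measured members averaged 0.88 ± 0.08 in aldosterone hearts and 0.89 ± 0.14 in control hearts, a difference of -0.0043 that became -0.06 without control 3. Atp5d, the delta subunit of the central stalk, had the smallest p of the complex. Its log2 ratio was 0.76, 0.92, 0.94 and 0.91 in aldosterone hearts 1, 2, 3 and 5, against 0.61, 0.93, 0.80, 0.94 and 0.83 in control hearts 1 to 5. Aldosterone 1 lay inside the control range and the other 3 at its upper end, with a difference of 0.06 (SE 0.08, unadjusted p = 0.445). Atp5c1, the gamma subunit that turns inside the catalytic head, differed by -0.0071 (SE 0.10), and Atp5o, which ties the head to the outer stalk, by -0.07 (SE 0.10).

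**Figure D4:**
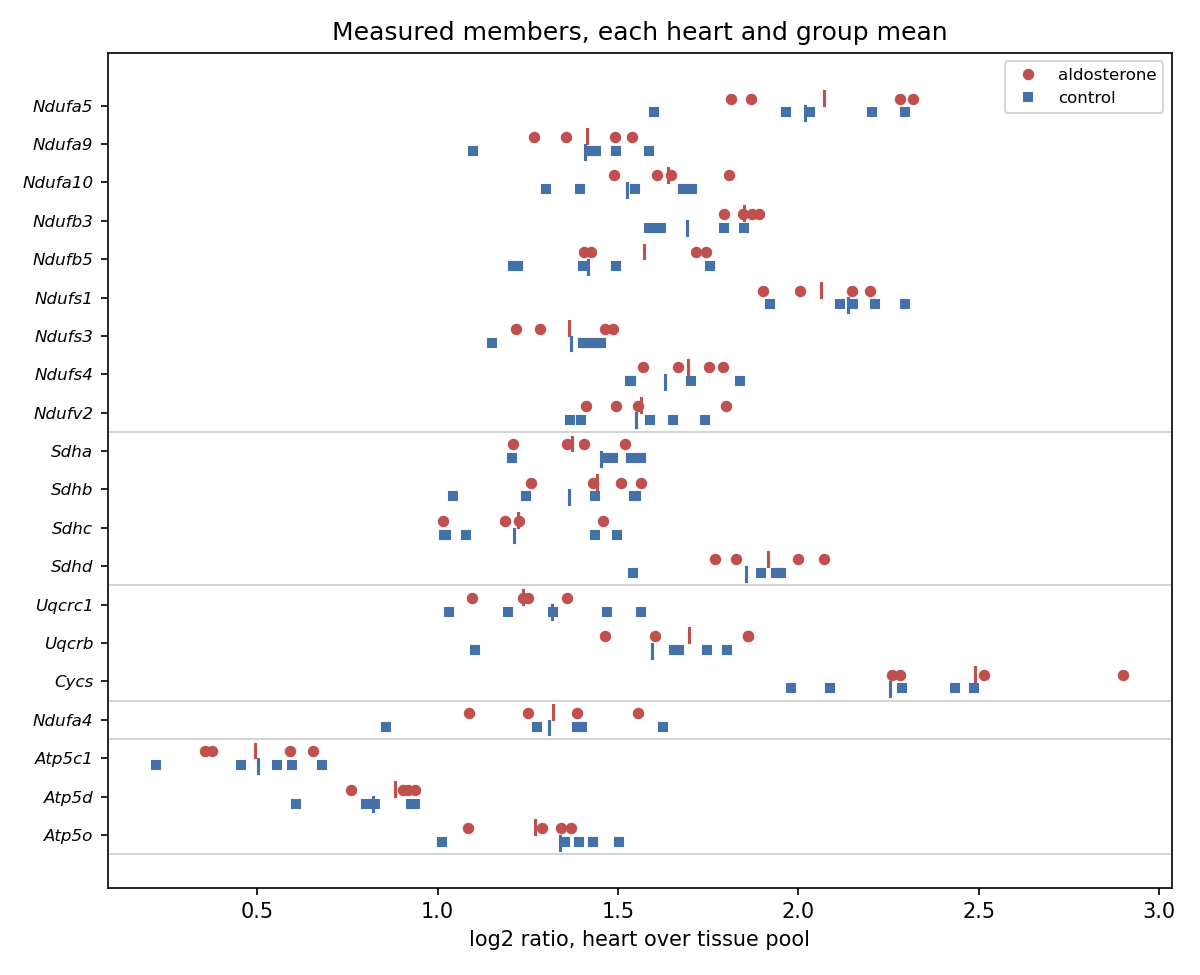
Log2 ratio of heart over tissue pool for the 20 measured genes, with 1 point for each of 4 aldosterone hearts (red circles) and 5 control hearts (blue squares) and a vertical tick at each group mean. Horizontal lines part the complexes. The groups overlap for every gene.

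Each of the 4 slides held arrays of both groups, so the difference could be taken within a slide. Over the 20 measured members it was 0.08 on slide 1 (14 of 20 positive), 0.41 on slide 2 (20 of 20), -0.14 on slide 3 (4 of 20) and -0.14 on slide 4 (5 of 20). Slide 2 is the slide of control 3 and aldosterone 2, the lowest control heart and the highest aldosterone heart for these genes. Complex by complex, slide 2 gave 0.36 for complex I, 0.42 for complex II, 0.60 for complex III with cytochrome c, 0.53 for complex IV and 0.29 for complex V. Slides 3 and 4 gave -0.17 and -0.10 for complex I, and negative values for each of the other 4 complexes too. Ndufb3 differed by 0.14, 0.31, 0.00031 and 0.24 on slides 1 to 4, and Cycs by 0.28, 0.81, -0.03 and -0.15. The direction of the members' difference therefore was not the same on all slides, and with slide as a block 0 members had an unadjusted p under 0.05. Aldosterone arrays lay at position 2 of a slide and control arrays at position 1 or 4, and an effect of position cannot be told apart from that of treatment.

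**Figure D5:**
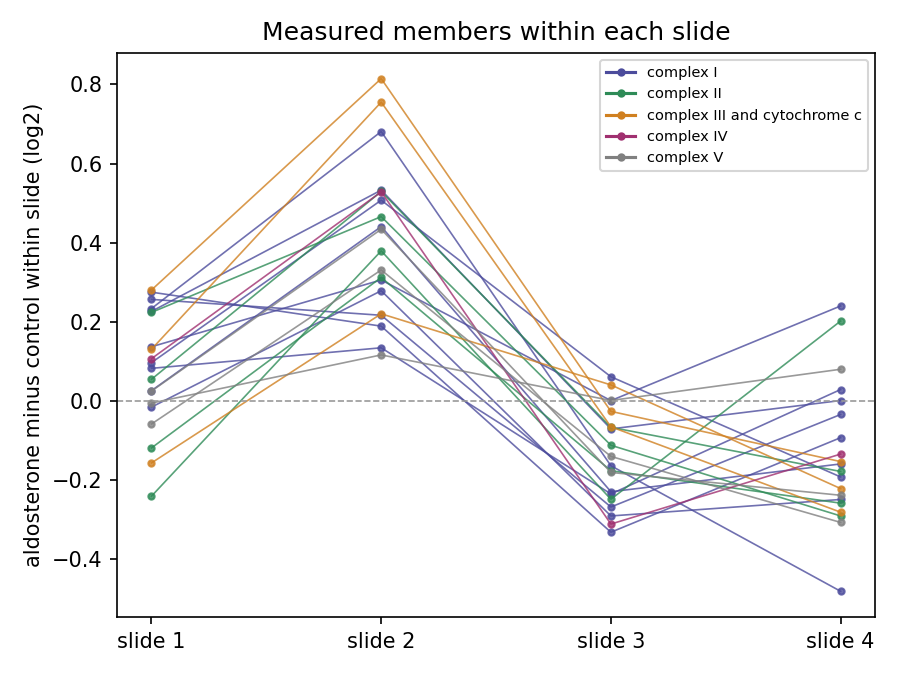
Difference in log2 ratio, aldosterone minus control, within each of 4 slides for the 20 measured genes, with lines joining the values of a gene and colours for the complex. All 20 values are above 0 on slide 2, which holds aldosterone 2 and control 3, and 4 and 5 of the 20 are above 0 on slides 3 and 4.

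Several members had both a saturated and an unsaturated probe, and the spread over hearts was smaller at the saturated one. Cycs had a saturated probe, on 8 arrays, whose log2 ratio spanned 0.39 over the 9 hearts, whereas the unsaturated probe used here spanned 0.92. For Ndufa5 the spans were 0.30 at the saturated and 0.72 at the unsaturated probe, for Uqcrb 0.33 and 0.76, and for Sdhb 0.45 and 0.52. The group difference of Cycs was -0.01 at the saturated probe and 0.23 at the unsaturated one used here. A further unsaturated probe of Cycs, dim at 100 to 148 Cy5 units, differed by 0.04. Uqcrb differed by 0.10 at the probe used here, by 0.02 at a probe saturated on 1 array and by -0.03 at its saturated probe. At their saturated probes Ndufa5 differed by -0.02, against 0.05, and Sdhb by 0.02, against 0.08. At another unsaturated probe Sdhc differed by -0.01, against 0.01, and Atp5c1 by -0.02, against -0.0071. Of the 49 probes that name a member, 24 were saturated on every array of at least 1 group, and 1 of the 49 had an unadjusted p under 0.05.

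The same fit was read for the other genes of the pathway. Of 22 further complex I subunits 21 were tested, 7 of them saturated on all 9 arrays, as were 3 of 4 further complex III subunits, 6 of 11 of complex V and 0 of 9 of complex IV. None of these genes passed after adjustment, and among their measured members none had an unadjusted p under 0.05, against 4.16% higher and 2.04% lower over all genes. Positive and negative differences were found in 8 and 6 of the further complex I subunits, 4 and 3 in complex IV, 3 and 1 in complex V, and 0 and 1 in complex III. The genes of smallest p were Ndufv3 (0.20, SE 0.09) and Ndufa11 (0.12, SE 0.06) in complex I, and Uqcr10 (-0.02, SE 0.07) in complex III. In complex IV they were Ndufa4l2 (0.09, SE 0.09), a relative of Ndufa4, and Cox6b2 (0.13, SE 0.16), an isoform known from testis. In complex V they were Atp5pb (0.09, SE 0.09), a subunit of the outer stalk, and Atpif1 (0.05, SE 0.07), the inhibitor of ATP hydrolysis by the synthase.

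Factors that assemble the complexes or express mitochondrial DNA were saturated on no array. Of 43 assembly factors 42 were tested, 27 with a positive and 15 with a negative difference, and 1 had an unadjusted p under 0.05. That was Ndufaf2, a complex I assembly factor, at 1.21 ± 0.09 in aldosterone hearts and 1.01 ± 0.15 in control hearts, a difference of 0.20 (SE 0.08, adjusted p = 0.765 by limma). Sdhaf3, an assembly factor of complex II, followed with 0.16 (SE 0.08). Of 16 genes of mitochondrial DNA maintenance and expression 12 had a positive and 4 a negative difference, and 1 had an unadjusted p under 0.05. Over all genes, 4.16% were higher and 2.04% lower at that level, and 2.1% had no overlap between the groups. Mterf4, which works with a methyltransferase of mitochondrial ribosomal RNA, was at 0.64 ± 0.07 in aldosterone hearts and 0.44 ± 0.09 in control hearts, a difference of 0.20 (SE 0.06, adjusted p = 0.595 by limma with Benjamini-Hochberg adjustment) with no overlap between the hearts. Lrpprc, which stabilises mitochondrial messenger RNA, differed by 0.18 (SE 0.08). The 13 subunits encoded in mitochondrial DNA were not analysed here.

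Upstream and downstream of the chain, the tricarboxylic acid cycle gave 10 measured genes of 14, 5 with a positive and 5 with a negative difference. Of these, 2 were lower at an unadjusted p under 0.05, as were 2.04% of all genes. Idh3g, a subunit of isocitrate dehydrogenase, lay at 1.41 to 1.55 in aldosterone hearts and 1.49 to 1.88 in control hearts, a difference of -0.23 (SE 0.08, adjusted p = 0.672 by limma). Ogdh, the alpha-ketoglutarate dehydrogenase, differed by -0.55 (SE 0.20, adjusted p = 0.696 by limma). Of 9 carriers and creatine kinases 6 were measured, 3 in each direction, with Ckm, the muscle creatine kinase, at -0.13 (SE 0.12) and the phosphate carrier Slc25a3 at 0.11 (SE 0.11). None of these genes passed after adjustment.

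Cell type markers were read beside these values, and no marker passed after adjustment. All 18 cardiomyocyte markers were well above background, 9 of them saturated on all 9 arrays. The 9 measured markers had heart means of 2.33 to 2.59 in aldosterone hearts and 2.25 to 2.56 in control hearts, with 6 positive and 3 negative differences. Their genes of smallest p were Csrp3, a muscle LIM protein, at 0.42 (SE 0.07, adjusted p = 0.116 by limma) and Myh6, the alpha myosin heavy chain, at -0.49 (SE 0.12). All 15 fibroblast markers had a positive difference, 11 with an unadjusted p under 0.05, with heart means of 0.74 to 1.23 in aldosterone hearts and 0.38 to 0.96 in control hearts, and Fstl1 (0.51, SE 0.12) and Vim (0.48, SE 0.11) had the smallest p. All 6 measured red blood cell markers had a positive difference with an unadjusted p under 0.05, at -2.42 to -1.95 in aldosterone hearts and -3.33 to -2.58 in control hearts, Slc25a37, a mitochondrial iron carrier, among them (0.59, SE 0.11). Over all genes, 4.16% were higher at that level. Of 12 endothelial, 11 smooth muscle and pericyte, 11 macrophage, 12 lymphocyte and 9 adipocyte markers measured, 5, 5, 8, 1 and 2 had a positive difference. Those of smallest p were Vwf (0.32) and Esam (0.18) among the endothelial, Cspg4 (0.13) and Mcam (-0.07) among the smooth muscle and pericyte, and Adgre1 (0.42) and Mrc1 (0.26) among the macrophage markers. Nkg7 (-0.08) is named for the lymphocyte markers, and Lipe (-0.27) and Cfd (-0.99) for the adipocyte markers, all as log2 differences, aldosterone minus control. The part of cell makeup in the members' values was not tested.

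The promoters of the members were searched for binding motifs of factors known to drive mitochondrial genes: NRF1 (GCATGCGC), the estrogen-related receptors (TCAAGGTCA) and GABP (CCGGAAGT). RefSeq promoters of the GRCm38.p6 assembly, 250 bases before and 50 bases after a start, were matched for 29 of the 40 members, giving 33 promoters, and both strands were read. The NRF1 letters occurred in 3 of 33 (9.09%), against 891 of 32851 promoters of all genes (2.71%). The estrogen-related receptor element occurred in 1 of 33 (3.03%), that of Sdhd, against 139 of 32851 (0.423%). The GABP letters occurred in 1 of 33 (3.03%), that of Ndufs3, against 1277 of 32851 (3.89%). The 3 promoters with NRF1 letters were those of Cycs, Sdhb and Uqcrc1, and in Uqcrc1 both strands matched at overlapping positions 31 and 33 after the start. The stretch of 60 bases around the motif is printed here for Cycs and Sdhb, where the motif lies before the start. The NRF1 letters are in capitals, and the bases read 5′ to 3′ on the gene's own strand. That of Cycs is chr6:50566596-50566655 on the minus strand, where the motif begins at -60 from the start, and that of Sdhb is chr4:140961191-140961250 on the plus strand, where it begins at -54.
Cycs: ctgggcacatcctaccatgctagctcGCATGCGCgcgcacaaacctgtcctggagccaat
Sdhb: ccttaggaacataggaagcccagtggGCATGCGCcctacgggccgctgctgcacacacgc
The letters describe the sequence, and no binding was measured.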

How the data were processed

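Ventricle RNA of 10 mice had been hybridised in Cy5 against a tissue pool in Cy3, per the labels. The deposited scanner files of 9 arrays hold spot intensity values and come from Agilent Feature Extraction 10.7.3.1 in the submitters' processing notes, with a log10 ratio of Cy5 over Cy3 per spot, per the file headers. A value table deposited by the authors gives log2 ratios of all 10 hearts by probe. On the 9 shared arrays it was the scanner's ratio on the log2 scale with no centring seen (Pearson r over probes 0.996 to 1.00, slope 1.00, and 82.7% to 86.6% of probes within 0.001). Its column medians were 0.04, 0.08, 0.11, -0.01 and 0.04 for aldosterone 1 to 5, and 0.06, 0.06, 0.12, 0.02 and 0.02 for control 1 to 5. The sources used here do not say how its other probes were treated.

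Median signals were corrected with normexp (offset 50) after local backgrounds over 20 units from the array's median had been replaced by it, and normalized by loess within arrays where control spots had weight 0, in limma 3.58.1 under R 4.3.3. Outlier spots (1667) were left out. Probes well above background on at least 4 arrays were kept, 26871 of 39429, with 25348 to 27953 probes above background per array and 279 to 420 saturated in Cy5. The number of arrays limits the precision. Accessions were matched to RefSeq records of GRCm38.p6, which named 26581 probes. A gene was represented by its probe with the fewest saturated Cy5 spots and, among those, the highest mean signal, without regard to group. A probe with several spots counted as saturated where over 0.5 of them were.

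The comparison was lmFit and eBayes on 4 aldosterone and 5 control arrays, with p two-sided and adjusted by Benjamini-Hochberg over 22011 genes, and was tested on simulated data. The members and lists were chosen with earlier results of these data known. Named are all members, with values by heart for the member of smallest p in each complex and for 3 muscle isoforms and their partners, and the 2 genes of smallest p of each list given. Values of 2 genes that this rule names are not reported here. Complex means had been planned over all members. Because saturated probes have no fold, they were taken over measured members, with all members as an alternative.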

Additional observations from a re-analysis of the deposited data

Results flagged for a closer look

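In 4 of 52 groups of values examined, the sample at one end stood further from the others than Dixon's 95% limit of 0.71 for 5 samples allows. The gap is given as a share of the group's range. Each time it was control 3 at the low end of the controls. Sdhd had a log2 ratio of 1.54 there, with the next control at 1.90, a share of 0.863. Ndufs3 had 1.15 with the next control at 1.40, a share of 0.833, and its Cy5 spot was saturated in control 3. Uqcrb had 1.10 with the next control at 1.65, a share of 0.787, and Sdha had 1.21 with the next control at 1.47, a share of 0.731. Chance flags about 1 in 20 groups, and the genes share the heart, so the flags are not independent of each other. The cause was not tested.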

How the results depend on the processing

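None of the measured members passed over all genes under any of 26 alternatives, nor did any measured gene of the other pathway lists. Members saturated throughout a group have no fold, so this says nothing of them. The number of genes called in all, 0 as reported, was 13 with Agilent's processed log ratios, 37 in the value table of 10 hearts, 10 with Cy5 alone and 2 with the replicate block. It ranged from 0 to 11 when single arrays were left out, with 11 without control 5, 7 without control 3, 2 without control 4 and 1 without aldosterone 1. The 1 member with an unadjusted p under 0.05 became 0 with local backgrounds as deposited, with Agilent's processed log ratios, with median centring and with slide as a block. With single arrays left out, the count ranged from 0 to 2. It was 2 without control 2, and 0 without aldosterone 1, 2 or 5 and without control 1, 3 or 5. The cause was not tested.

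The difference of each complex mean ranged from -0.0018 to 0.09 for complex I and -0.05 to 0.07 for II. It ranged from -0.08 to 0.15 for III with cytochrome c, -0.10 to 0.09 for IV and -0.06 to 0.03 for V. Alternatives chosen after seeing the data (all members averaged, and only never-saturated members in complex I) are included. The moves were smaller than the spread between single hearts, but the sign turned for every complex under at least 1 alternative. For complex I this was only without control 3, and for complex III with cytochrome c only with the brightest probe of a gene. The sign turned for Ndufs3 under 11 of 24 alternatives, Atp5c1 under 9 of 25, Sdhc and Ndufa4 under 6 each, Ndufa5 and Ndufa9 under 4, Ndufv2 under 3, Uqcrb under 2, and Sdhb, Sdhd and Cycs under 1. Same-numbered hearts deviated together with correlations of 0.06, 0.34, 0.35 and -0.34, so the numbers were not taken to pair them. Aquantile between arrays leaves log ratios unchanged by construction. Saturation at the end of the scanner's scale leaves 20 members without a fold, and no setting recovers them.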
